A study of Mus musculus with 24 samples.

Results

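The transcripts of 8 genes were followed in the visual cortex of 24 mice: the mouse nuclear and mitochondrial topoisomerases Top1, Top1mt, Top2a, Top2b, Top3a and Top3b, and the enzymes Tdp1 and Tdp2, which remove topoisomerases trapped on DNA. They were picked by symbol from a table of raw read counts for 55414 genes, and Top1 was picked because its level was low in mice given psilocybin and light. All 8 were among the 14464 genes that passed a filter on low counts, which required a count of at least 30 in any library. Top2a passed with 4 libraries at or over 30 (light mouse 17, psilocybin-dark mice 8 and 11, and psilocybin-light mouse 19) and had at most 20 in any dark library, and the other 7 genes reached this count in all 24. In GRCm39, with the gene models of GENCODE vM39, the genes lie at Top1 (chr2:160487802-160566298), Top1mt (chr15:75527333-75550660), Top2a (chr11:98883769-98915062), Top2b (chr14:6034301-6104605), Top3a (chr11:60629009-60668333), Top3b (chr16:16688572-16711269), Tdp1 (chr12:99850737-99923763) and Tdp2 (chr13:25015156-25026138). Their counts cover exons, whose length was 3819 bases (Tdp2) to 15623 bases (Top2b).

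C57BL/6J male mice, 8 weeks old at the experiment, were kept in a reversed light cycle and tested in their dark phase, with 6 mice and 6 libraries in each of 4 groups. Dark mice received vehicle (phosphate-buffered saline, PBS) and stayed in the dark, and light mice received PBS and were moved into light for 2.5 h. Psilocybin-dark and psilocybin-light mice received 5 mg/kg psilocybin, a psychedelic that acts on serotonin receptors, by intraperitoneal injection, and then stayed in the dark or were moved into light. Polyadenylated RNA from the dissected visual cortex was sequenced, with totals of 13552516 to 17906994 counts per library. Each library was taken as 1 mouse, named by its group and library number, and p-values measure the spread between these mice.

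The light exposure of the libraries is given in opposite ways by the sources. By the headings of the study's count table, used here, dark mice are libraries 1 to 6, psilocybin-dark mice 7 to 12, light mice 13 to 18 and psilocybin-light mice 19 to 24. The labels of the samples match these headings in the drug and contradict them in the light exposure of all 24 libraries (PBS-Light, Psi-Light, PBS-Dark and Psi-Dark, in that order). Under the labels, the groups stay the same sets of mice, the names of light and dark are exchanged, every difference attributed to light changes sign, and the mice with low Top1 would be those given psilocybin and kept in the dark.

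Topoisomerases cut DNA, let strands pass or turn, and seal the cut again, which relieves the twisting that transcription and replication put into the double helix. The type I enzymes TOP1 and, in mitochondria, TOP1MT cut a single strand. The type II enzymes TOP2A, made mainly in dividing cells, and TOP2B, made also in neurons, cut both strands, and the topoisomerase III enzymes TOP3A and TOP3B pass single strands, TOP3B also in RNA. TDP1 and TDP2 cleave the bond between a trapped topoisomerase and DNA, TDP1 mainly for TOP1 and TDP2 mainly for type II enzymes. In neurons, inhibition of TOP1 is known to lower the transcripts of very long genes.

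The starts of Top1, Top1mt and Top2b are shown because these genes differed between the groups or were chosen for a difference (the window of Top3b overlaps exons of other transcripts and is not shown). Each sequence is the 250 bases before the start of the gene's canonical transcript in GENCODE, on the gene's own strand and read 5′ to 3′ from the GRCm39 genome. The windows are chr2:160487552-160487801 (plus strand), chr15:75550661-75550910 (minus strand) and chr14:6104606-6104855 (minus strand). Capitals mark matches, on either strand, to 6 motifs: the cAMP response element TGACGTCA, its half-site TGACG (which lies within it), the E-box CACGTG, the CCAAT box CCAAT, the GC box GGGCGG and the AP-1 site TGANTCA.
Top1: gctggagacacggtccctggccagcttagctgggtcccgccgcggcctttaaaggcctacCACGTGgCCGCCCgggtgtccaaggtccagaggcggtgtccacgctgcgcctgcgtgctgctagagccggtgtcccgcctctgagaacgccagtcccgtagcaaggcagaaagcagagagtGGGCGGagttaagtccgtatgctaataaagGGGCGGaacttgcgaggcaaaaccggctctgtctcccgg
Top1mt: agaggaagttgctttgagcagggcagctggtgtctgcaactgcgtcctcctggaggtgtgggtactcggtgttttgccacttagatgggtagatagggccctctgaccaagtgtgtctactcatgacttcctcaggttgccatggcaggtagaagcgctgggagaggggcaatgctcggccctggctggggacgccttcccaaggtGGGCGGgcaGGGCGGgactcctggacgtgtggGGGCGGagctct
Top2b: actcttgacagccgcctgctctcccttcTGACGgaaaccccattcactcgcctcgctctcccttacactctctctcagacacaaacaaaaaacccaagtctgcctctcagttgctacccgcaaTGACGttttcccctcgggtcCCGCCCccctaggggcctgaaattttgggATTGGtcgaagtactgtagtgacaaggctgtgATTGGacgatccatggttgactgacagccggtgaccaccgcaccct
The Top1 window held 1 E-box and 3 GC boxes, the Top1mt window 3 GC boxes, and the Top2b window 2 half-sites, 2 CCAAT boxes and 1 GC box. Among 13550 promoter windows of the same length, 7.68% held an E-box, 48.7% a GC box, 35.7% a CCAAT box, 22.7% a half-site, 4.43% an AP-1 site and 2.04% a full cAMP response element. The Top2a window held 6 CCAAT boxes and 1 GC box. These are matches of letters and were not tested as binding sites.

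The dissected pieces did not all hold the same tissue. In 4 libraries, dark mice 1 and 6, psilocybin-dark mouse 12 and light mouse 18, the summed level of 9 cerebellar markers was 1473 to 5087 CPM (counts scaled to a fixed library total), against 34.5 to 202 CPM in the other 20. The summed level of 9 hippocampal markers was 261 to 477 CPM in dark mice, 118 to 280 CPM in light mice, 111 to 286 CPM in psilocybin-dark mice and 122 to 192 CPM in psilocybin-light mice. Fibcd1, a hippocampal gene, had a median of 1878 normalized counts in dark mice and of 140 to 164 in the other groups. The summed level of 8 markers of cortical excitatory neurons was 1841 to 5694 CPM in dark mice and 4193 to 6073 CPM over the other groups, with 4 of 8 higher in each comparison with dark mice. Of all genes tested, 15.4% were higher in light, 11.9% in psilocybin-dark and 17.4% in psilocybin-light mice. The summed level of 7 oligodendrocyte markers was 1203 to 8154 CPM in dark mice and 2531 to 5883 CPM over the other groups, and without the 4 cerebellar libraries all 7 were higher in each comparison with dark mice. Microglial markers summed to 190 to 339 CPM, with 2 of 6 higher in light than in dark mice, and endothelial markers summed to 111 to 218 CPM, with 1 of 6 higher. Both counts stand beside 15.4% of all genes higher in light mice. Calls of the 8 genes that change without the 4 libraries, or with the mean hippocampal marker level in the model, are given both ways below. In whole tissue, fewer cells of a type and less RNA per cell cannot be told apart.

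The genes differed widely in level. Per kilobase of exon, Top1 had a mean of 159 ± 15.8 normalized counts (SD, n = 24 mice) and Top2b 143 ± 12.1. They were followed by Tdp2 at 68.6 ± 7.48, Top3b at 56.3 ± 4.49, Top1mt at 37.6 ± 8.54, Tdp1 at 18.7 ± 2.33 and Top3a at 11.2 ± 1.5. Top2a was lowest, at 2.17 ± 1.03 normalized counts per kilobase, at the 1.34th percentile of the genes tested. Top1 was above Top2b in 18 of 24 mice and Top3b above Top1mt in 22 of 24, and every other neighbour in this order was separated in all 24 mice. Top2b exceeded Top2a per kilobase in every group, with a median ratio of 80.8 in dark, 64.9 in light, 58.1 in psilocybin-dark and 61.7 in psilocybin-light mice.

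**Figure D1:**
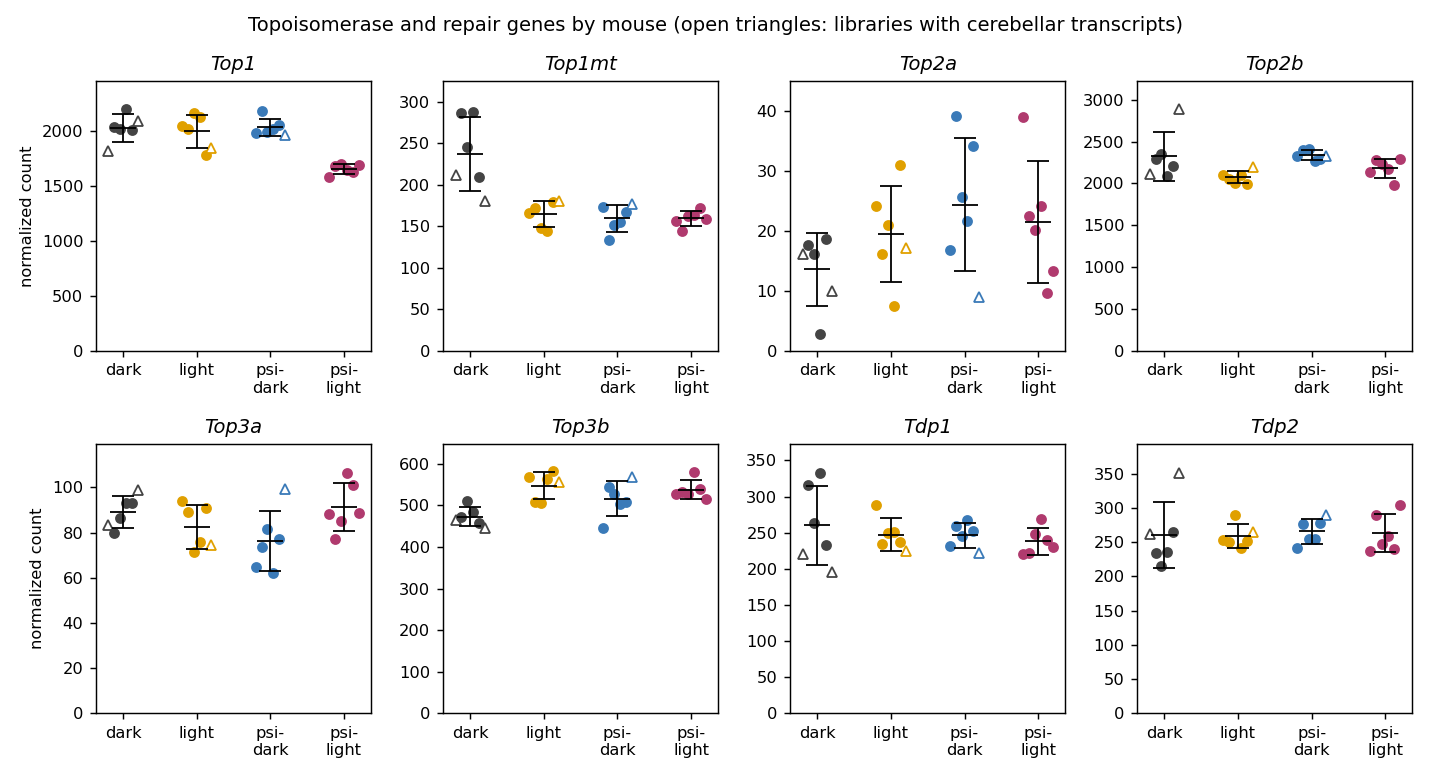
Normalized counts (y axes, from 0) of the 8 genes in each mouse, by group (x axis, with light exposure as in the count table; the sample labels give the opposite). Points are mice, open triangles are the 4 libraries with cerebellar transcripts, and bars are the mean and SD of 6 mice. The 6 psilocybin-light mice lie below all other mice for Top1, and the 6 dark mice above all other mice for Top1mt.

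Top1 encodes the main topoisomerase I of the nucleus, which relaxes DNA ahead of and behind RNA polymerase. The 6 psilocybin-light mice had 1582, 1681, 1699, 1648, 1630 and 1695 normalized counts (counts scaled to a mean library size of 16058300). Dark mice had 1820 to 2203 (median 2028), light mice 1781 to 2162 (median 2033) and psilocybin-dark mice 1965 to 2185 (median 2009). Every psilocybin-light mouse was thus below every other mouse, and the remaining groups overlapped. This is the value for which the gene was chosen, so it is a description without a test. The group means were 2031 ± 126 in dark, 1998 ± 152 in light, 2034 ± 80.6 in psilocybin-dark and 1656 ± 45.2 in psilocybin-light mice (SD, n = 6 mice each).

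On the log2 scale, Top1 in psilocybin-light mice differed from dark mice by -0.29 (SE 0.05), from light mice by -0.27 (SE 0.05) and from psilocybin-dark mice by -0.30 (SE 0.05). These differences equal -18.5%, -17.1% and -18.6%. Of all genes tested, 31 (0.214%) were below all 18 other mice in all 6 psilocybin-light mice, and 10 (0.0691%) were above them. Psilocybin-light mice did not overlap light mice for 1.62% of all genes, and psilocybin-dark mice for 6.42%. Without the 4 cerebellar libraries the differences were -0.31 against dark, -0.29 against light and -0.29 against psilocybin-dark mice. These too describe the level for which Top1 was chosen.

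With light alone or psilocybin alone, Top1 differed from dark mice by less than the spread between mice. The difference was -0.02 (SE 0.05) between light and dark mice (edgeR adjusted p = 0.746) and 0.00 (SE 0.05) between psilocybin-dark and dark mice (edgeR adjusted p = 0.979). Psilocybin-dark and light mice differed by 0.03 (SE 0.05, edgeR adjusted p = 0.894).

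The summed level of astrocyte markers was lowest in the group in which Top1 was low. The summed level of 6 markers (Aqp4, Gja1, Aldh1l1, Slc1a3, Slc1a2, Gfap) was 2867 to 3210 CPM in psilocybin-light mice, 3191 to 4218 CPM in light mice, 3578 to 4550 CPM in psilocybin-dark mice and 3279 to 4217 CPM in dark mice. Only light mouse 17, at 3191 CPM and with the lowest Top1 of its group, overlapped the psilocybin-light range. Of the 6 markers, 1 was lower in psilocybin-light than in light mice and 2 were lower than in psilocybin-dark mice. In these comparisons 0.608% and 6.38% of all genes were called, in either direction. Against dark mice 1 marker was higher in each group, beside 15.4%, 11.9% and 17.4% of all genes in light, psilocybin-dark and psilocybin-light mice. Lower were 2 markers in light, 2 in psilocybin-dark and 3 in psilocybin-light mice, beside 16.5%, 12.8% and 21.0% of all genes. The part of astrocyte transcripts in the level of Top1 was not tested.

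The 5 genes whose log2 CPM was most like that of Top1 over the 24 mice were Ppp6c (Pearson r = 0.949), Ppig (0.932), Pcyox1l (0.927), Elavl1 (0.915) and Zbtb44 (0.911), out of 11118 genes whose mean count was 100 or more. Spearman's rho for them was 0.806 to 0.882. Elavl1, which encodes an RNA-binding protein, had a mean of 933 normalized counts in dark, 878 in light, 932 in psilocybin-dark and 628 in psilocybin-light mice. Zbtb44, a zinc finger gene, had 487, 421, 466 and 308 in the same order. All values of a mouse come from 1 library, so these correlations share its composition as well as its group.

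Top1mt, the mitochondrial topoisomerase I encoded in the nucleus, showed the largest change against dark mice that passed the test. Dark mice had 212, 287, 246, 288, 209 and 180 normalized counts. Light mice had 144 to 180 (median 169), psilocybin-dark mice 134 to 177 (median 161) and psilocybin-light mice 144 to 172 (median 161). No dark mouse overlapped any other group, while the other groups overlapped each other. Of all genes tested, 10.0% did not overlap between light and dark mice, 5.58% between psilocybin-dark and dark mice and 15.8% between psilocybin-light and dark mice. The closest values were 180.02 in dark mouse 6 and 179.89 in light mouse 18, which both carried cerebellar transcripts.

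The transcript was lower in light than in dark mice (log2 fold change -0.52, SE 0.10, edgeR adjusted p = 0.000396), in psilocybin-dark than in dark mice (-0.57, SE 0.10, edgeR adjusted p = 0.00031) and in psilocybin-light than in dark mice (-0.57, SE 0.10, edgeR adjusted p = 0.000124). These changes equal -30.5%, -32.5% and -32.6%. The comparisons share the dark mice. No difference passed the test between psilocybin-light and light mice (-0.05, SE 0.10, edgeR adjusted p = 0.958) or psilocybin-dark mice (0.00, SE 0.10, edgeR adjusted p = 0.994). The combined change was smaller than the sum of the separate changes, with an interaction of 0.52 (SE 0.14, edgeR adjusted p = 0.0254). Exchanging light and dark as in the sample labels changes the sign of the light difference and of the interaction.

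Hippocampal markers moved with Top1mt. Of the 7 hippocampal markers tested, 3 were lower in light, 2 in psilocybin-dark and 5 in psilocybin-light mice than in dark mice, and none was higher. Of all genes tested, 16.5%, 12.8% and 21.0% were lower, in the same order. Lct and Iyd were too low to test. With the mean hippocampal marker level as a covariate, no Top1mt difference passed the test. The log2 fold change was then -0.22 in light (adjusted p = 0.256), -0.26 in psilocybin-dark (adjusted p = 0.253) and -0.21 in psilocybin-light mice (adjusted p = 0.313), and the interaction was 0.26 (adjusted p = 0.365, all edgeR). The summed hippocampal level of 4 of the 6 dark mice was above that of all other mice, so this marker level and the dark group cannot be told apart in full. The genes most like Top1mt were Tmem132e (r = 0.969), Dbnl (0.954) and Nrp2 (0.953). Nrp2, a receptor for semaphorins, had a mean of 1169 normalized counts in dark mice and 385, 355 and 330 in light, psilocybin-dark and psilocybin-light mice.

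**Figure D2:**
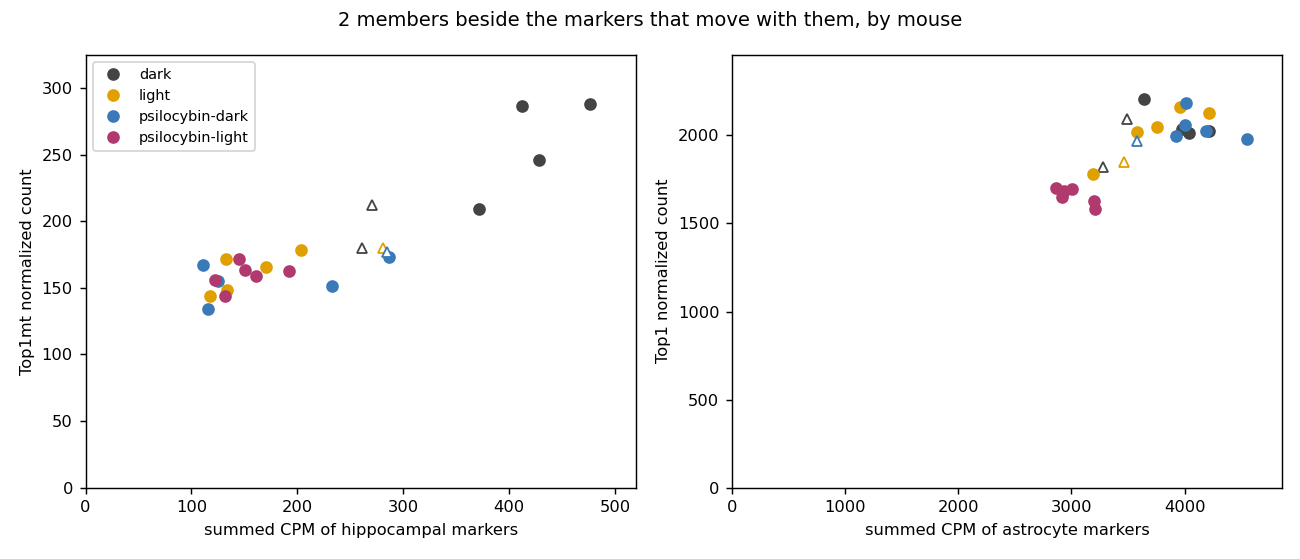
Left: Top1mt normalized count (y axis) against the summed CPM of 9 hippocampal markers (x axis). Right: Top1 normalized count against the summed CPM of 6 astrocyte markers. Each point is 1 mouse, colored by group with light exposure as in the count table, and open triangles are the 4 libraries with cerebellar transcripts. Dark mice 2 to 5 lie highest in hippocampal markers, at 372 to 477 CPM, and psilocybin-light mice lie at 2867 to 3210 CPM of astrocyte markers and at 1582 to 1699 Top1 counts.

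Top2b, the type II topoisomerase of neurons, was slightly lower in light mice. Light mice had 1998 to 2202 normalized counts (median 2080) and dark mice 2118, 2297, 2351, 2094, 2213 and 2887. Psilocybin-dark mice had 2268 to 2415 (median 2329) and psilocybin-light mice 1976 to 2291 (median 2202). Light and dark mice overlapped, while every psilocybin-dark mouse was above every light mouse, as was the case in either direction for 2.21% of all genes. Dark mouse 6 stood apart from the other dark mice.

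The difference between light and dark mice was -0.16 (SE 0.06, edgeR adjusted p = 0.0361), or -10.7%. It did not pass without dark mouse 6 (-0.09, adjusted p = 0.102), and leaving out dark mouse 3 or light mouse 14, 15 or 17 gave adjusted p-values of 0.0564 to 0.0770. The difference from dark mice was 0.01 in psilocybin-dark mice (SE 0.06, edgeR adjusted p = 0.947) and -0.09 in psilocybin-light mice (SE 0.06, edgeR adjusted p = 0.217). Psilocybin-dark mice were 0.17 above light mice (SE 0.06), which did not pass with all libraries (edgeR adjusted p = 0.144) and passed without the 4 cerebellar libraries (0.18, edgeR adjusted p = 0.0189) and without dark mouse 6 (0.17, adjusted p = 0.0313). With the hippocampal covariate, Top2b was also lower in psilocybin-light than in dark mice (-0.29, edgeR adjusted p = 0.0124).

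Exons of Top2b share 2612 bases (16.7% of its exon length) with Rarb, a retinoic acid receptor gene on the other strand, and whether the counting used strand was not given in the sources used here. Rarb itself had means of 44.8 to 53.7 normalized counts in the 4 groups, against 2078 to 2338 for Top2b. The genes most like Top2b were Tbc1d9 (r = 0.883), Dld (0.860) and Cdk12 (0.823), of which Cdk12 encodes a kinase of RNA polymerase II.

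Top2a, the type II enzyme of dividing cells, was close to the lower limit of measurement. Raw counts were 3 to 35 over all mice, and normalized counts were 2.85 to 18.6 in dark, 7.46 to 31.0 in light, 9.01 to 39.1 in psilocybin-dark and 9.71 to 39.0 in psilocybin-light mice. All groups overlapped. Against dark mice the log2 fold change was 0.52 (SE 0.40) in light, 0.84 (SE 0.40) in psilocybin-dark and 0.65 (SE 0.40) in psilocybin-light mice, and no comparison of groups was called (edgeR). These differences are a description, since Top2a entered the fit only through libraries outside the dark group. The coefficient of variation within a group was 40.9% to 47.6%. Markers of dividing cells were similarly low: 8 of 10 did not pass the filter, and the 10 together summed to 6.86 to 11.3 CPM, with neither of the 2 tested markers called in any comparison. Mki67 had group means of 17.7 to 24.8 normalized counts.

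Of the topoisomerase III genes, Top3b changed and Top3a did not pass the test with all libraries. Top3b, whose product acts on DNA and RNA with TDRD3, passed the test as higher than in dark mice in light and psilocybin-light mice. Dark mice had 464, 473, 511, 484, 458 and 447 normalized counts, light mice 505 to 583 (median 560), psilocybin-dark mice 445 to 570 (median 517) and psilocybin-light mice 515 to 581 (median 530). No psilocybin-light mouse overlapped the dark mice, as was the case in either direction for 15.8% of all genes. Light mice overlapped dark mice only between 505 and 511. The rise was 0.21 in light (SE 0.05, edgeR adjusted p = 0.00406) and 0.18 in psilocybin-light mice (SE 0.05, edgeR adjusted p = 0.00856), or 15.7% and 13.6%. These calls held in all 24 fits that left out 1 mouse and in all 8 other settings.

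In psilocybin-dark mice, Top3b was 0.13 above dark mice (SE 0.05, edgeR adjusted p = 0.0836). That difference passed without psilocybin-dark mouse 7, the lowest of its group (0.17, adjusted p = 0.0164), and without dark mouse 3, the highest of its group (0.15, adjusted p = 0.0490, both edgeR). Psilocybin-dark mice were not separated from the groups given light. They differed from light mice by -0.08 (SE 0.05, edgeR adjusted p = 0.521), and psilocybin-light mice differed from them by 0.06 (SE 0.05, edgeR adjusted p = 0.613). The genes most like Top3b were Tbce (r = 0.832), Gtpbp2 (0.817) and Rsrp1 (0.813).

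Top3a, whose product works in the nucleus and in mitochondria, had 79.8 to 98.7 normalized counts in dark, 71.6 to 93.9 in light, 62.1 to 99.1 in psilocybin-dark and 77.4 to 106 in psilocybin-light mice. All groups overlapped, and psilocybin-dark mouse 12 was the highest of its group at 99.1, with the next at 81.8. With all libraries, Top3a was -0.22 from dark in psilocybin-dark mice (SE 0.11, edgeR adjusted p = 0.147) and 0.25 higher in psilocybin-light than in psilocybin-dark mice (SE 0.11, edgeR adjusted p = 0.185). Without mouse 12, these values were -0.31 (adjusted p = 0.0285) and 0.35 (adjusted p = 0.0407), and the interaction passed at 0.45 (adjusted p = 0.0397). Without the 4 cerebellar libraries, which include mouse 12, they were -0.30 (adjusted p = 0.0454), 0.35 (adjusted p = 0.0235) and 0.42 (adjusted p = 0.0486, all edgeR).

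No comparison of the repair enzymes passed the test with all libraries, in edgeR (lowest unadjusted p = 0.224, for Tdp1) or in DESeq2. Tdp1, which frees DNA ends from TOP1, had 221, 315, 263, 332, 233 and 196 normalized counts in dark mice, 224 to 289 in light, 222 to 267 in psilocybin-dark and 221 to 269 in psilocybin-light mice. The dark mice spanned the whole range of the other groups. Psilocybin-light and dark mice differed by -0.13 (SE 0.10, edgeR adjusted p = 0.342). Dark mice 1 and 6, the lowest, carried cerebellar transcripts, and without the 4 such libraries the difference was -0.26 (edgeR adjusted p = 0.0187). With 1 surrogate variable it was -0.18 (edgeR adjusted p = 0.0454).

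Tdp2, which frees DNA ends from type II enzymes, had 216 to 351 normalized counts in dark mice (median 249), with mouse 6 at 351 and the next at 265. Light mice had 241 to 290, psilocybin-dark mice 242 to 290 and psilocybin-light mice 237 to 304. Its log2 fold changes lay between -0.02 and 0.04 in all 6 comparisons of groups (SE 0.09, edgeR adjusted p from 0.860 to 0.977). Tdp2 shares 339 exon bases (8.88%) with Acot13 on the other strand, which had group means of 576 to 670 normalized counts. The genes most like Tdp1 were Adcy6 (r = 0.828), Unc5d (0.826) and Efnb2 (0.814), and those most like Tdp2 were Leo1 (0.835), Akap7 (0.827) and Mpp3 (0.775).

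**Figure D3:**
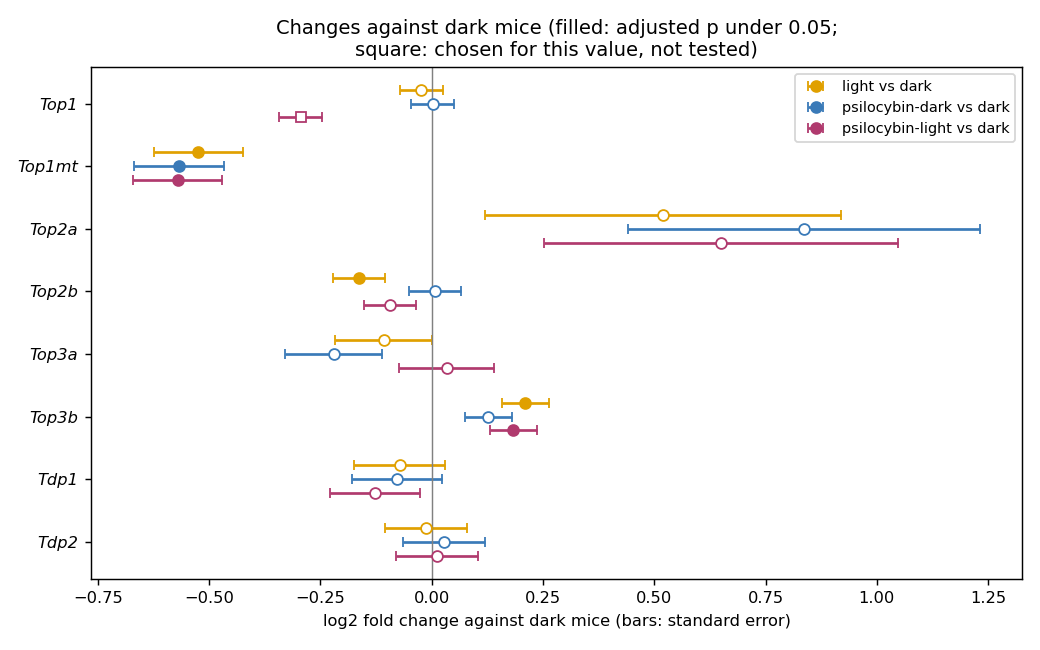
Log2 fold change against dark mice (x axis) of the 8 genes (y axis) in light, psilocybin-dark and psilocybin-light mice, named by the count table. Bars are standard errors from the edgeR fit, filled points passed an adjusted p of 0.05, and the square is the Top1 value for which the gene was chosen and which was not tested. Top1mt lies between -0.57 and -0.52 in all 3 comparisons and Top3b between 0.13 and 0.21.

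Counted over the genes, 3 of 8 differed between light and dark mice (Top3b higher, Top1mt and Top2b lower), against 31.9% of all genes tested (15.4% higher, 16.5% lower). Between psilocybin-dark and dark mice 1 of 8 differed (Top1mt, lower), against 24.7% of all genes (11.9% higher, 12.8% lower). Between psilocybin-light and dark mice 2 of the 7 genes other than Top1 differed (Top3b higher, Top1mt lower), against 38.4% (17.4% higher, 21.0% lower). Shares of this size were thus close to or below those of all genes. The median log2 fold change of the tested members was -0.05 in light, 0.00 in psilocybin-dark and 0.01 in psilocybin-light mice, beside -0.01, -0.02 and -0.02 over all genes. These counts and medians, and the interaction count below, include Top2a. It was called in no comparison and entered the fit only through libraries outside the dark group, so its place in them is a description.

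Between psilocybin-light and light mice, edgeR called 0 of 7 members, with 0 at an unadjusted p under 0.05, and DESeq2 called 0, while 0.608% of all genes were called. Between psilocybin-light and psilocybin-dark mice it called 0 of 7, with 1 at an unadjusted p under 0.05 (Top3a) and 0 by DESeq2, against 6.38% of all genes. Between psilocybin-dark and light mice it called 0 of 8, with 1 at an unadjusted p under 0.05 (Top2b) and 0 by DESeq2, against 0.456% of all genes. The interaction was called for 1 of 7 (Top1mt), against 8.75% of all genes.

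The genes around these enzymes were taken from 7 lists of 74 genes in all. Repair of TOP1 breaks, by PARP1, XRCC1 and their partners, gave few calls. Of 9 genes, edgeR called 1 in light mice and 1 in psilocybin-light mice, both higher, beside 15.4% and 17.4% of all genes. In psilocybin-dark mice edgeR called 0 of the 9, with 0 at an unadjusted p under 0.05, and DESeq2 also called 0. Without the 4 cerebellar libraries the counts were 1 higher and 1 lower in light mice, and 1 higher in psilocybin-light mice.

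Double-strand break end joining is the repair of breaks that trapped type II enzymes leave. Of 14 of its genes, 2 were lower in light and psilocybin-dark mice, beside 16.5% and 12.8% of all genes. Atm, the kinase that signals such breaks, fell by 0.66 on the log2 scale in light (edgeR adjusted p = 6.29e-06), 0.35 in psilocybin-dark (adjusted p = 0.00359) and 0.44 in psilocybin-light mice (adjusted p = 0.000252). Prkdc, the catalytic subunit of DNA-dependent protein kinase, fell by 0.51, 0.47 and 0.49 (edgeR adjusted p from 0.000112 to 0.000422). In psilocybin-light mice Lig4 was also lower (-0.21, adjusted p = 0.0125) and Rbbp8 higher (0.41, adjusted p = 0.0301, both edgeR), though Rbbp8 did not pass when dark mouse 2 or 4 or psilocybin-light mouse 21, 23 or 24 was left out (edgeR adjusted p up to 0.0721). In the fit without the 4 cerebellar libraries, 1 gene was higher and 2 lower in psilocybin-dark mice, and 2 were higher and 3 lower in psilocybin-light mice. For both kinases the interaction was positive, at 0.57 for Atm (adjusted p = 0.00596) and 0.49 for Prkdc (adjusted p = 0.0168, both edgeR). With the mean hippocampal marker level as a covariate, neither interaction passed the test.

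Among the genes for the SUMO and protease steps that remove trapped topoisomerase protein, 3 of 7 passed the test as higher in light mice, beside 15.4% of all genes, among them Pias4 (0.21, edgeR adjusted p = 0.0116) and Sprtn (0.22, edgeR adjusted p = 0.0473). The count was 1 without dark mouse 1 or light mouse 14 and up to 4 without other mice, and leaving out 1 mouse at a time, Sprtn lost its call for 14 of the 24 mice (edgeR adjusted p up to 0.109). In psilocybin-dark mice only Rnf4, a ubiquitin ligase that recognizes SUMO chains, rose (0.16, edgeR adjusted p = 0.00202), and in psilocybin-light mice Pias4 (0.20) and Sprtn (0.24) were higher (edgeR adjusted p = 0.0107 and 0.0303). Sprtn did not pass there without dark mouse 2, 3 or 5 or psilocybin-light mouse 22 or 23 (edgeR adjusted p up to 0.0739). Leaving out the 4 cerebellar libraries, 2 genes were higher in light mice, and 2 were higher and 1 lower in psilocybin-light mice.

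Of the partners of topoisomerase III, 4 of 5 could be tested, Rmi2 being too low. Rmi1, a partner of TOP3A, was lower in light (-0.26, adjusted p = 0.0370) and psilocybin-light mice (-0.34, adjusted p = 0.00662), and Blm, the helicase of the same complex, in light mice (-0.41, adjusted p = 0.0482, all edgeR). When each of the 24 mice was left out in turn, Blm in light mice did not pass in 15 fits (edgeR adjusted p up to 0.124) and Rmi1 in light mice in 6 (edgeR adjusted p up to 0.100). Without the 4 cerebellar libraries no partner was lower in light or psilocybin-light mice (the Rmi1 call was lost), 1 was higher in light mice and 2 were higher in psilocybin-dark mice. Fmr1, which acts with TDRD3 and TOP3B on RNA, rose in psilocybin-dark mice (0.30, SE 0.06, edgeR adjusted p = 0.00173). Tdrd3 had 0.11 in light mice (SE 0.07, edgeR adjusted p = 0.240).

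Of 8 genes of cohesin and CTCF, which hold the DNA loops at which TOP2B is found, 4 were lower in light and 5 in psilocybin-light mice, beside 16.5% and 21.0% of all genes. The count in light mice was 2 without dark mouse 1 or 6 or light mouse 17, and in psilocybin-light mice 3 without dark mouse 1 or 6 or psilocybin-light mouse 19 or 24, and both reached 6 without other mice. Nipbl, the cohesin loader, fell by 0.26 in light (edgeR adjusted p = 0.00607) and by 0.39 in psilocybin-light mice (edgeR adjusted p = 0.000145). Wapl, Smc1a and Smc3 were lower in both. When each of the 24 mice was left out in turn, Smc1a in psilocybin-light mice lost its call for 10 of them (edgeR adjusted p up to 0.144). In light mice, Smc3 lost its call for 6 (edgeR adjusted p up to 0.119) and Wapl for 5 (edgeR adjusted p up to 0.0917). In psilocybin-dark mice edgeR and DESeq2 each called 0 of 8, with 1 at an unadjusted p under 0.05. Without the 4 cerebellar libraries, 2 were lower in light and 2 in psilocybin-light mice.

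RNA polymerase II elongation is the process that TOP1 assists. Of 11 of its genes, 5 were called in light mice (1 higher, 4 lower), beside 31.9% of all genes. In psilocybin-dark mice 2 were called (1 higher, 1 lower), beside 24.7%, and in psilocybin-light mice 7 (2 higher, 5 lower), beside 38.4%. The counts were the same without the 4 cerebellar libraries. Leaving out 1 mouse at a time gave 5 to 6, 2 to 3 and 5 to 7 calls. Polr2a, the largest subunit of the polymerase, fell by 0.54 in light, 0.33 in psilocybin-dark and 0.49 in psilocybin-light mice (edgeR adjusted p = 3.10e-06, 0.000501 and 3.82e-06). Cdk9, the kinase that releases paused polymerase, rose by 0.31, 0.18 and 0.35 (edgeR adjusted p = 5.85e-05, 0.00906 and 9.85e-06). Its cyclin Ccnt1 was lower in light (-0.22) and psilocybin-light mice (-0.27, edgeR adjusted p = 0.00102 and 0.000104). Between psilocybin-light and light mice, edgeR called 1 of the 73 list genes tested, with 5 at an unadjusted p under 0.05, and DESeq2 called 2.

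**Figure D4:**
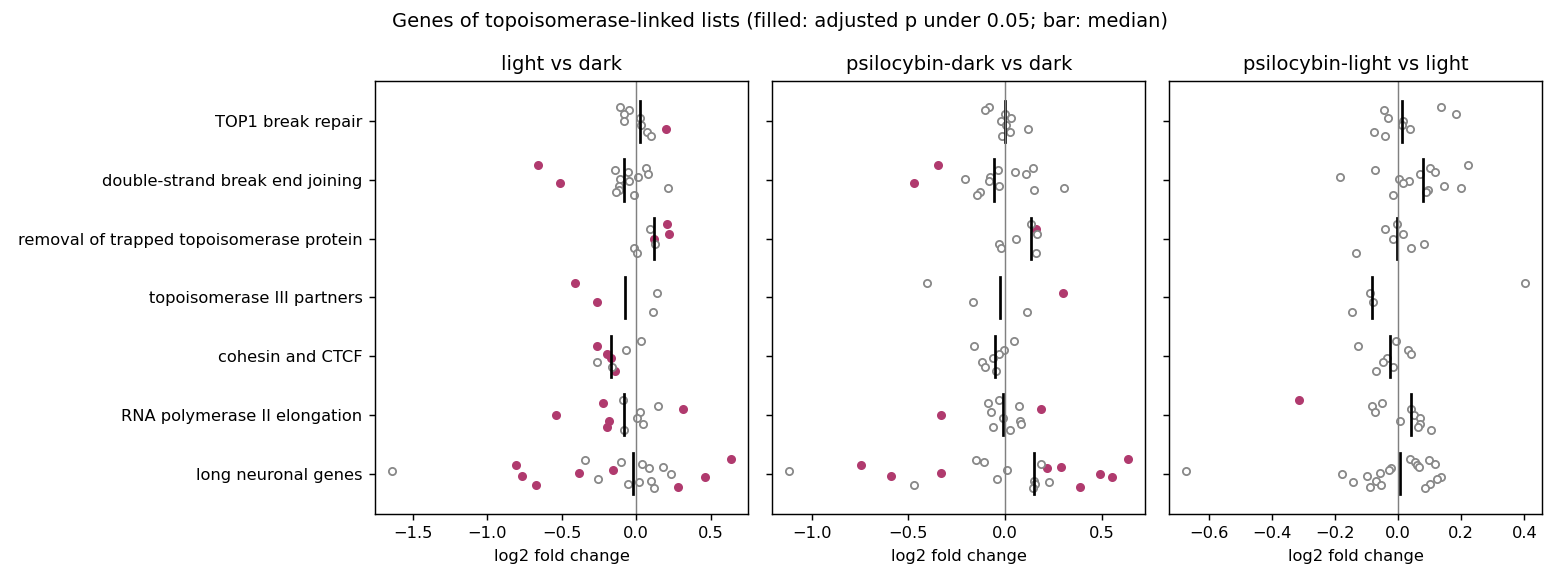
Log2 fold changes (x axes) of the genes of 7 lists (y axis) between light and dark mice, psilocybin-dark and dark mice, and psilocybin-light and light mice, named by the count table. Each point is 1 gene, filled where the edgeR adjusted p was under 0.05, and black bars are list medians. Called genes lie on both sides of 0 against dark mice, and 1 gene was called between psilocybin-light and light mice.

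Since TOP1 is known to support the transcription of long genes, 20 neuronal genes of 649 to 2271 kb were listed. Against dark mice, 3 were higher and 5 lower in light mice, beside 15.4% and 16.5% of all genes. In psilocybin-dark mice 6 were higher and 3 lower, beside 11.9% and 12.8%. In psilocybin-light mice 4 were higher and 6 lower, beside 17.4% and 21.0%. Without the 4 cerebellar libraries these counts were 3 and 8, 7 and 7, and 4 and 8. That fit called more genes between light and dark mice (6112, against 4611), so the shares above do not apply to its counts. Lsamp, a limbic adhesion protein gene, was lower in all 3 groups, most in psilocybin-light mice (-0.86, SE 0.08, edgeR adjusted p = 1.05e-07). Cntn4, a contactin, was higher in all 3, at 0.64, 0.64 and 0.68 (edgeR adjusted p from 3.83e-06 to 2.73e-05). Grik2, a kainate receptor subunit, was also lower in all 3, at -0.38 in light, -0.33 in psilocybin-dark and -0.44 in psilocybin-light mice (edgeR adjusted p from 1.04e-05 to 0.000439). Csmd3 was lower by a like amount in all 3, at -0.81, -0.74 and -0.75 (edgeR adjusted p from 4.52e-05 to 0.000171).

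Between psilocybin-light and light mice, where Top1 differed by -0.27, edgeR called 0 of the 20 long genes, with 0 at an unadjusted p under 0.05, and DESeq2 called 0, while 0.608% of all genes were called. Their median log2 fold change was 0.01, beside -0.01 over all genes. Between psilocybin-light and psilocybin-dark mice, where Top1 differed by -0.30, it called 3, all lower (Il1rapl1 -0.43, Lsamp -0.27, Nrxn3 -0.35), beside 6.38% of all genes, with a list median of -0.11. When each of the 24 mice was left out in turn, Il1rapl1 lost its call for 12 of them, Lsamp for 8 and Nrxn3 for 7 (edgeR adjusted p up to 0.114), and without the 4 cerebellar libraries 5 of the 20 were lower.

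The lists were also counted against dark mice with the mean hippocampal marker level as a covariate. In light and psilocybin-light mice, 0 genes were then called of TOP1 break repair and 0 of the removal of trapped protein, 2 were lower of end joining in each (Atm and Prkdc), and 6 of cohesin and CTCF were lower in each. Of the topoisomerase III partners, 1 was lower in psilocybin-light mice (Rmi1). Of RNA polymerase II elongation, 1 was higher and 3 lower in light, and 1 higher and 4 lower in psilocybin-light mice, and of the long genes 1 was higher and 3 lower, and 1 higher and 5 lower. In psilocybin-dark mice the calls were 1 lower gene of cohesin, 1 lower of elongation, and 1 higher and 2 lower long genes. With the covariate, 1661 of all genes tested were called between light and dark mice, against 4611 without it. Between psilocybin-dark and dark mice these numbers were 181 and 3575. The shares of all genes given above thus do not apply to the list counts with the covariate.

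Over all protein-coding genes, the median change fell with genomic length wherever light and dark exposure differed within a drug group. Between light and dark mice it was 0.05 for genes under 10 kb (2639 genes) and -0.16 for genes of 200 kb or more (931 genes). Between psilocybin-light and psilocybin-dark mice these medians were 0.08 and -0.11. Between psilocybin-light and light mice they were 0.00 and 0.00, and between psilocybin-dark and dark mice -0.04 and -0.05. These values are descriptions without a test, and those without the 4 cerebellar libraries were 0.05 and -0.16, 0.12 and -0.11, 0.03 and 0.01, and -0.04 and -0.04. Under the sample labels the sign of the first and second of these patterns is reversed.

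**Figure D5:**
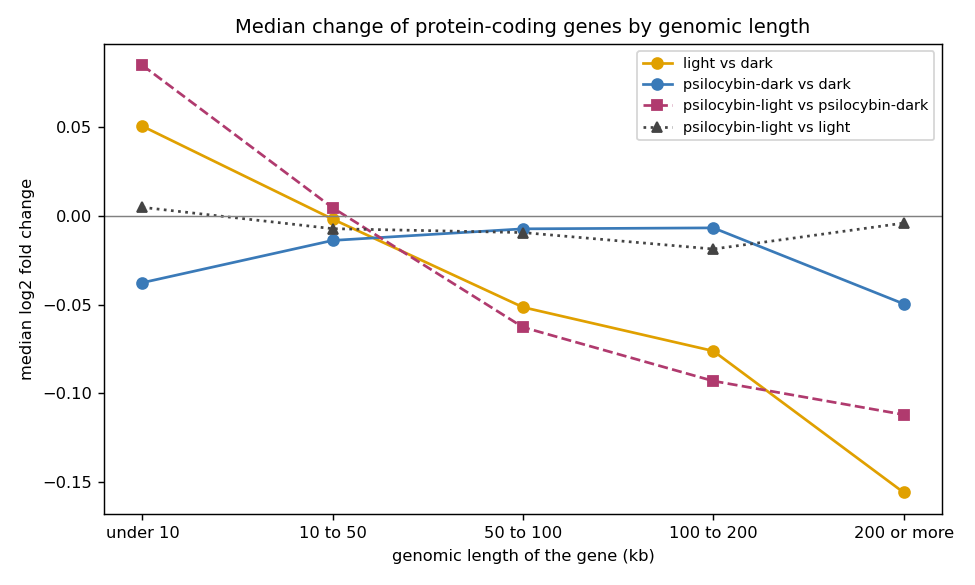
Median log2 fold change (y axis) of protein-coding genes in 5 classes of genomic length (x axis, kb) for 4 comparisons, named by the count table. From the shortest to the longest class, light against dark goes from 0.05 to -0.16 and psilocybin-light against psilocybin-dark from 0.08 to -0.11, while psilocybin-light against light stays between -0.02 and 0.00.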

How the data were processed

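Per the study's methods, the authors enriched polyadenylated RNA from the visual cortex of 24 mice, trimmed the reads with cutadapt, aligned them to GRCm39 with STAR and obtained gene counts with HTSeq. The submitters' processing notes list mm10. The deposited values are raw counts, with no normalization. The strand setting and annotation release are not given in the sources used here. Groups followed the headings of the study's count table, whose raw counts equalled the deposited ones for 1457 of 1457 genes, because the labels contradict those headings in light exposure. The chi-square per degree of freedom between mice of a group was at least 3.02 over 60 pairs, so no library repeated another of its own group.

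Analysis used edgeR 4.0.16 in R 4.3.3. The 14464 genes that reached a count of 30 in any library entered the fit. After TMM scaling, 1 quasi-likelihood model with 4 groups was fitted to all 24 libraries (common biological coefficient of variation 0.182). P-values were two-sided, adjusted by Benjamini-Hochberg over all genes tested, with a threshold of 0.05. The interaction was the psilocybin difference under light less that in the dark. Log2 CPM used a prior count of 2. On simulated data (light against dark, 14464 genes), 170 of 200 changed genes were called, and 13 unchanged genes. Of the changed genes, 96 of 100 with a 2-fold change were called, and the other changed genes had smaller changes. No called change of the 8 genes reached 2-fold. The simulation also held no tissue differences between libraries and fewer changed genes than were called in the data. It therefore does not show how often changes like those of the 8 genes would be called. Genes with low counts were not among those changed. Top1 was not tested in comparisons with psilocybin-light mice or in the interaction, since it was chosen for its level there. The members, the linked lists and the marker lists were chosen with earlier results of these data known. Named genes were the 8 members, up to 4 genes of each list with the smallest adjusted p, the 5 genes most like Top1 and the 3 most like each other member with a mean count of at least 100 (Top3a and Top2a are below it). Il1rapl1 and Nrxn3 were named after their values were seen. Some list genes are not reported here by name. Marker lists covered dividing cells, oligodendrocytes, astrocytes, microglia, endothelial cells, hippocampus, cerebellum and cortical excitatory neurons.

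Alternatives were DESeq2 1.42.0, its size factors within edgeR, a fit of the compared groups alone, filterByExpr or no filter on low counts, 1 surrogate variable from sva 3.50.0 and each mouse left out. Fits without the 4 cerebellar libraries and with the hippocampal markers as a covariate were added after seeing the data. Names and gene models of 14427 tested genes came from GENCODE vM39, and sequences from GRCm39. Columns of the authors' comparisons were not used.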

Additional observations from a re-analysis of the deposited data

Results flagged for a closer look

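Dark mouse 6 was far from the other 5 dark mice for 2 genes, at 2887 normalized counts for Top2b and 351 for Tdp2 by Dixon's ratio. Of the 32 groups of 6 mice screened, 2 passed, and at its 95% critical value some groups pass by chance. This library carried cerebellar transcripts. Without it, the Top2b difference between light and dark mice was -0.09 (edgeR, adjusted p = 0.102).

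The effect of psilocybin on Top1mt differed between light and dark, with an interaction of 0.52 on the log2 scale (edgeR, adjusted p = 0.0254), which changes sign if light and dark are exchanged as in the sample labels. With the hippocampal markers as a covariate it was 0.26 (edgeR, adjusted p = 0.365).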

How the results depend on the processing

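No direction of a called gene reversed, and DESeq2, DESeq2's size factors, filterByExpr and 1 surrogate variable changed no count of members called by more than 1.5 times. Without the 4 cerebellar libraries, 2 members were called between psilocybin-dark and dark mice, 1 between psilocybin-light and psilocybin-dark mice, 1 between psilocybin-dark and light mice, and 2 for the interaction. With the hippocampal covariate, 0 were called between psilocybin-dark and dark mice and 0 for the interaction, and with only the compared groups, 1 between psilocybin-dark and light mice. Leaving out each mouse gave 2 to 3 members called (light against dark), 1 to 2 (psilocybin-dark against dark), 0 to 1 (psilocybin-light against psilocybin-dark), 0 to 1 (psilocybin-dark against light) and 1 to 2 (interaction). The libraries behind these moves were psilocybin-dark mouse 12 (Top3a), dark mice 3 and 6 and light mice 14, 15 and 17 (Top2b), and dark mouse 3 and psilocybin-dark mouse 7 (Top3b). Top2b between light and dark mice also did not pass with no filter (adjusted p = 0.0813) or only the compared groups (adjusted p = 0.127; both edgeR). Top1 differences of psilocybin-light mice were -0.32 to -0.24 on the log2 scale when each mouse was left out. With the hippocampal covariate the Top1 difference from dark mice was -0.38. These describe the level for which Top1 was chosen and are no test of it. The causes were not tested.

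The counts of all genes called moved more. Over the 8 other settings they were 1661 to 6112 (4611 as reported) for light against dark, 181 to 5445 (3575) for psilocybin-dark against dark, 2031 to 6846 (5551) for psilocybin-light against dark, 22 to 326 (88) for psilocybin-light against light, 463 to 2418 (923) for psilocybin-light against psilocybin-dark, 0 to 811 (66) for psilocybin-dark against light and 38 to 3817 (1266) for the interaction. The linked lists ranged over the same settings, for light against dark, over 0 to 2 genes (break repair), 2 to 2 (end joining), 0 to 2 (topoisomerase III partners), 0 to 4 (removal of protein), 1 to 6 (cohesin), 4 to 5 (elongation) and 4 to 12 (long genes). The study's methods state that littermates were assigned to the groups at random. No paired analysis was possible because the litter of each mouse is not given in the sources used here. Top2a had raw counts of 3 to 35 and a coefficient of variation of 40.9% to 47.6% within groups.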
